A study of Sus scrofa with 23 samples.

Results

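The proteasome genes of pig prefrontal cortex were taken by symbol: every row of the count table whose pig Ensembl symbol begins with PSMA, PSMB, PSMC, PSMD, PSME or PSMG, leaving out the immunoproteasome genes PSMB8, PSMB9 and PSMB10. This gave 39 of 25880 rows, and 37 of them had enough reads to be tested among 15049 genes. The tested members were 6 subunits of the 20S alpha ring, 5 subunits of the 20S beta ring, 6 ATPases and 10 non-ATPase subunits of the 19S particle, 3 chaperones of 19S assembly, 1 chaperone of 20S assembly, 4 activators, and 2 genes (PSMC3IP and PSME3IP1) that share the letters of the symbol but encode no proteasome part. The 2 members left untested were PSMA8, an alpha subunit of the testis in human and mouse, with 5 counts in 4 of 23 libraries, and PSMB11, a catalytic beta subunit of the thymus in human and mouse, with 1 count.

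The proteasome is the protease that breaks down most short-lived and damaged proteins of the cell, after these have been marked with ubiquitin. Its 20S core is a barrel of stacked rings, in which alpha subunits gate the entrance and beta subunits hold the catalytic sites. The 19S particle binds ubiquitin chains, removes them and threads the protein into the barrel by means of its ATPases, and core and 19S particle together form the 26S proteasome. In neurons the proteasome also turns over synaptic proteins. The roles given here are those known from human, mouse and yeast.

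Each library came from the frozen prefrontal cortex of 1 adolescent female Danish slaughter pig of 20 kg, and its polyadenylated RNA was sequenced. The pig had been given psilocybin at 0.08 mg/kg or saline, in either case once into a vein while awake and freely moving, and was killed with pentobarbital 1 day or 1 week after that. Psilocybin is a psychedelic prodrug, and its product psilocin acts on serotonin receptors. The groups were psilocybin 1 day (6 animals), saline 1 day (5), psilocybin 1 week (6) and saline 1 week (6). The series states 6 animals for every group, so 1 saline 1 day animal was not analysed here. The labels divide the libraries into batch 2 (12 libraries) and batch 1 (11 libraries), both present in every group, and do not say what a batch is. Animals are named by their library labels, such as cor_psi_1d_255 for a psilocybin 1 day animal and cor_sal_1w_245 for a saline 1 week animal.

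Libraries held between 9504421 and 18654626 assigned counts. Markers of neurons (SNAP25, mean 2721 CPM, the count scaled to library size), astrocytes (GFAP, 2499 CPM) and oligodendrocytes (MBP, 5203 CPM) were abundant, while INS (0.0107 CPM), TTR (1.97 CPM) and ALB (6.87 CPM), which mark other tissues or the choroid plexus, were low. The markers MYH7, MOBP and CLDN5 have no row with their symbol. In bulk tissue, fewer cells of a type and less RNA per cell cannot be told apart. The libraries cor_psi_1w_427, cor_sal_1d_420 and cor_sal_1w_245 were the highest on the first principal component of all tested genes (28.3, 40.1 and 37.8). They are 1 from each group but psilocybin 1 day. The next library, cor_psi_1d_255, had 20.1 and the one after it, cor_sal_1d_260, 9.03, so the cut after 3 libraries was a choice. These 3 are called here the libraries that stood apart from the other 20. Results they touch are given with and without them where both were computed.

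Levels were compared between genes as CPM per kilobase of exon, averaged over the 23 libraries. The exon length is the annotated one, such as 1075 bases for PSMB7 and 7467 for PSME4, so the order depends on the annotation. The highest of all 37 was PSMB7 (79.2 CPM per kilobase), the catalytic subunit that cuts after basic residues. In the beta ring the lowest was PSMB4 (19.3), a structural subunit, and the ring's median was 28.6. The alpha ring had a median of 17.5 and spread from PSMA7 (40.7) down to PSMA5 (6.54). In the 19S particle, the ATPases had a median of 19.1, with PSMC5 (54.7) at the top and PSMC4 (12.3) at the bottom. The non-ATPase subunits had a median of 30.8 and ran from PSMD3 (69.6), a structural subunit of the lid, to PSMD7 (12.1), the partner of the deubiquitinase. The 19S chaperones PSMD9 (8.90), PSMD5 (8.57) and PSMD10 (4.59), and the activators PSME1 (12.3), PSME3 (11.7), PSME2 (4.08) and PSME4 (4.04), all lay below the alpha ring's median, while single core subunits such as PSMA5 lay among them. PSMG3, a chaperone of the alpha ring, had 30.0, above the medians of both rings and of the ATPases. Its annotated exons are short (1132 bases), and in CPM without division by length it had 33.95, below every ATPase (lowest PSMC4, 60.75). PSMC3IP, a factor of meiotic recombination, had the lowest level of the tested members (1.98), and PSME3IP1, a binding partner of PSME3, had 9.52.

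**Figure D1:**
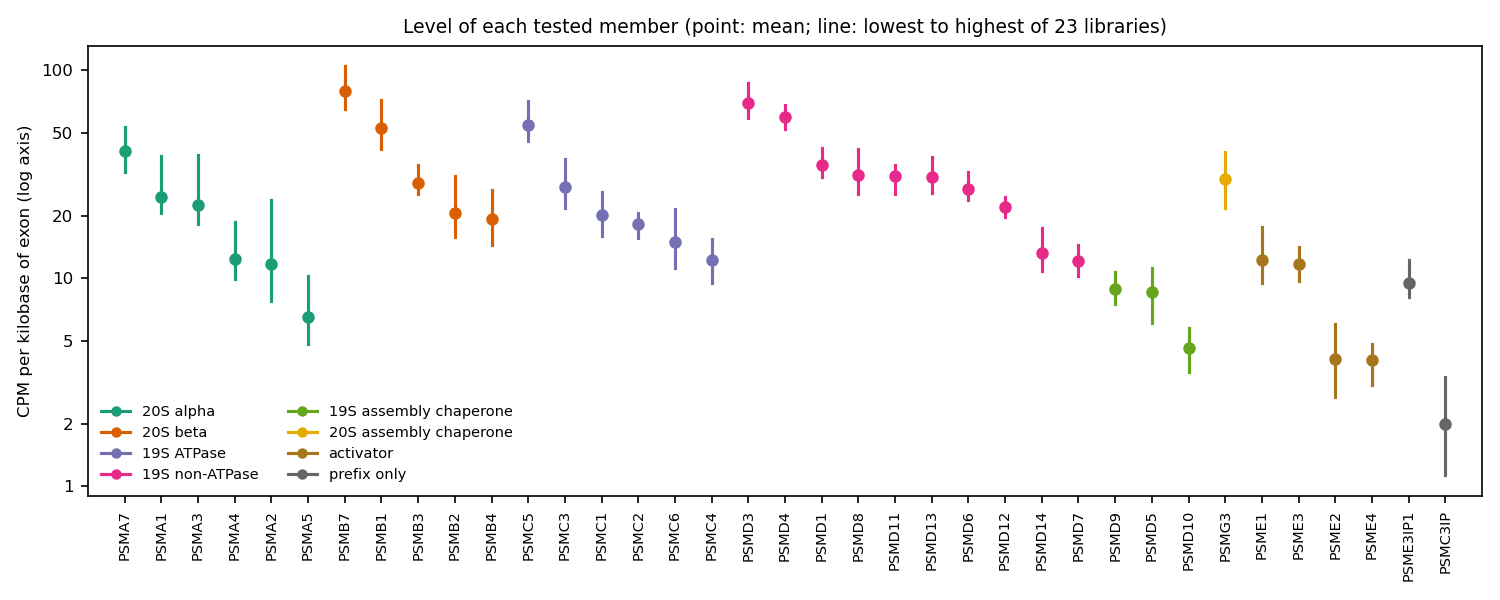
Level of each of the 37 tested members in CPM per kilobase of exon (log axis), grouped by role. Points are means and lines run from the lowest to the highest of the 23 libraries; the point of PSMB7 (79.2) is the highest and that of PSMC3IP (1.98) the lowest.

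Neighbours in this order mostly overlapped between animals. PSMB7 spanned 65.3 to 105 CPM per kilobase and PSMD3, next below it, 59.2 to 87.1. Every tested member but PSMC3IP (2.50 CPM) had a mean above 10 CPM.

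The first question of the design was whether expression in the cortex differed 1 day after psilocybin. No proteasome gene passed: with edgeR 0 of 37 members had an adjusted p under 0.05, and 0.0% of all genes tested did. At an unadjusted p under 0.05 edgeR gave 0 of 37 members, where 2.83% of all genes reached that level. DESeq2 and limma-voom likewise gave 0 members by adjusted p, and 0 at the unadjusted level, against 3.0% of all genes with DESeq2 and 2.64% with limma-voom. A p above the threshold does not show that levels were equal, so each value is given with its 95% interval. Of the members, 31 had negative and 6 positive log2 fold changes (psilocybin over saline), with a median of -0.083, and the median over all genes was 0.004. The counts turned on 1 saline library. Without animal cor_sal_1d_420, 20 members had negative and 17 positive values, with a median of -0.002. With 1 surrogate variable in the model 24 were negative (median -0.016).

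In the alpha ring, the gate of the barrel, 6 of 6 members had negative values, with a median of -0.22. Without animal cor_sal_1d_420 the ring had 3 negative and 3 positive values, and the medians of the alpha ring, the beta ring, the ATPases and the non-ATPase subunits all lay between -0.003 and 0.0. PSMA1 (chromosome 2, 44740145 to 44757440, build susScr11) had the smallest p of the members. Its level ran from 32.2 through a median of 34.3 to 37.4 CPM after psilocybin, and the saline animals had 36.95, 38.9, 34.9, 36.1 and 60.97 CPM (in the order cor_sal_1d_256, cor_sal_1d_260, cor_sal_1d_416, cor_sal_1d_418 and cor_sal_1d_420, kept for this group throughout). The groups overlapped, and animal cor_sal_1d_420 alone lay far above all the others. The log2 fold change was -0.27 (95% interval -0.57 to 0.04, edgeR adjusted p = 1.00). Leaving out 1 animal gave values from -0.321 (without animal cor_sal_1d_416) to -0.093 (without animal cor_sal_1d_420).

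PSMA3, an alpha subunit like PSMA1 (chromosome 1, 187343131 to 187372193), had from 54.4 through 59.4 to 71.9 CPM after psilocybin and 68.4, 69.7, 55.0, 55.3 and 115 CPM in the same 5 saline animals. Again animal cor_sal_1d_420 was the high one, and the other 4 saline animals lay within the psilocybin range. Its log2 fold change of -0.27 (-0.59 to 0.05) became -0.019 without animal cor_sal_1d_420 and -0.346 without animal cor_sal_1d_418. PSMA2, another alpha subunit, had from 34.6 through 44.2 to 51.2 CPM after psilocybin and 43.0, 48.2, 33.6, 47.7 and 103 CPM after saline. Its log2 fold change was the most negative of all members and had the widest interval of the alpha ring (-0.34, -0.77 to 0.11), with -0.61 in batch 2 and 0.07 in batch 1.

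In the catalytic ring 5 of 5 members had negative values at 1 day (median -0.147). Without animal cor_sal_1d_420 it had 3 negative and 2 positive values, and without all 3 libraries that stood apart 2 negative and 3 positive (median 0.001). PSMB7 had from 74.8 through 78.1 to 102 CPM after psilocybin and 94.2, 97.3, 73.8, 75.0 and 106 CPM after saline. The saline animals fell in a high group of 3 and a low group of 2, and both of the low ones were of batch 2. Its log2 fold change was -0.153 (-0.37 to 0.06), with -0.046 without animal cor_sal_1d_420 and -0.198 without animal cor_psi_1d_255. The other catalytic genes, PSMB5 and PSMB6, carry no symbol in the table and were found by their RefSeq position on Sscrofa11.1. Their rows reach beyond the RefSeq gene, which covers 16.6% of the span of the PSMB5 row and 52.9% of that of the PSMB6 row, so reads of neighbouring sequence may be counted with them. The PSMB5 row (chromosome 7, 76014516 to 76058891), for the subunit that cuts after hydrophobic residues, had from 82.5 through 90.03 to 116 CPM after psilocybin and 102, 111, 77.0, 78.1 and 114 CPM after saline. The PSMB6 row (chromosome 12, 52094191 to 52098267), for the subunit that cuts after acidic residues, had from 64.2 through 72.3 to 90.03 CPM after psilocybin and 87.6, 82.2, 53.1, 66.9 and 105 CPM after saline. Both rows overlapped between treatments over most of their range, and their log2 fold changes of -0.078 (-0.29 to 0.13) and -0.111 (-0.39 to 0.17) turned to 0.030 and 0.057 without animal cor_sal_1d_420.

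Among the ATPases of the 19S particle 5 of 6 had negative values (median -0.049), and PSMC6 had the most negative. PSMC6 (chromosome 1, 182318731 to 182357981), whose span overlaps STYX on the same strand and ERO1A on the other, had from 55.8 through 62.9 to 73.5 CPM after psilocybin and 79.4, 68.5, 58.7, 63.0 and 99.4 CPM after saline. Its log2 fold change was -0.22 (-0.49 to 0.05), with -0.063 without animal cor_sal_1d_420 and -0.272 without animal cor_sal_1d_260. Of the 10 non-ATPase subunits 7 had negative values, none beyond -0.092, with a median of -0.023. Their intervals were the narrowest of the roles: the median distance from the estimate to either end was 0.16, against 0.31 in the alpha ring. The deubiquitinase PSMD14 had -0.092 (-0.32 to 0.14) and the ubiquitin receptor PSMD4 had 0.006 (-0.14 to 0.15). Over all 37 members, the 95% intervals at 1 day reached no lower than -0.77 and no higher than 0.26.

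**Figure D2:**
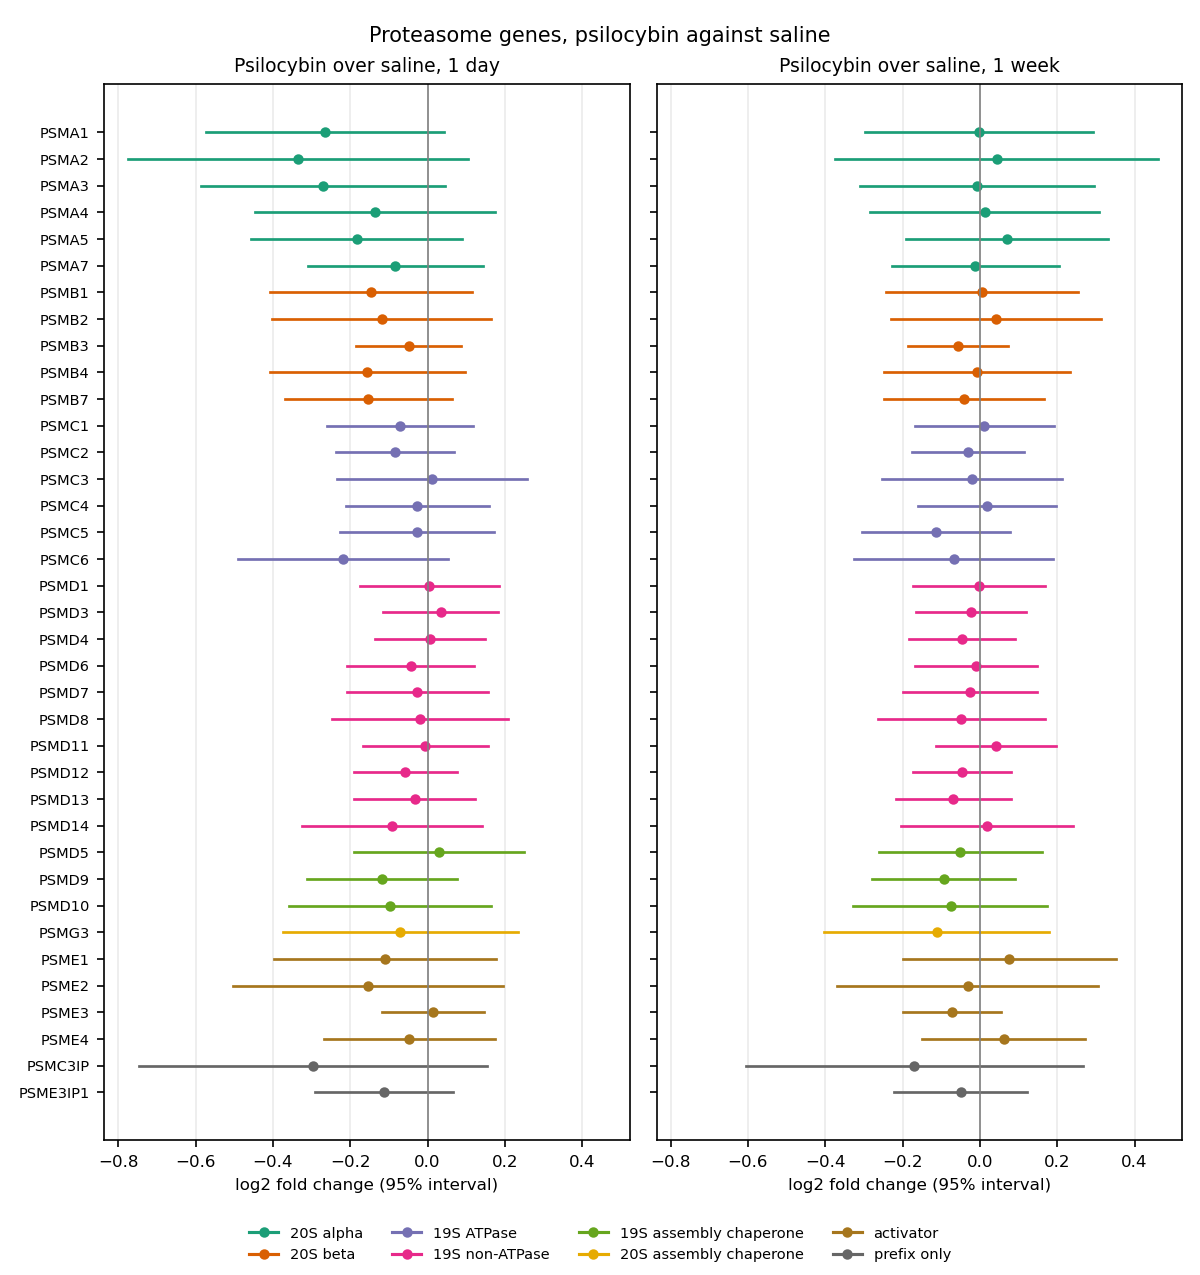
Log2 fold change of psilocybin over saline with its 95% interval for each tested member, at 1 day (left) and at 1 week (right), coloured by role. At 1 day 31 of 37 points lie below 0, at 1 week 26 of 37 do; every interval crosses 0.

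Assembly factors and activators ran from -0.154 (PSME2) to 0.030 (PSMD5). PSMG3 had -0.071 (-0.38 to 0.23), and the 19S chaperones PSMD9, PSMD10 and PSMD5 had -0.118, -0.096 and 0.030. The interferon-inducible activators PSME1 and PSME2, which form 1 ring together, had -0.109 (-0.40 to 0.18) and -0.154 (-0.50 to 0.20). The nuclear activator PSME3 had 0.014 (-0.12 to 0.15), and PSME4, which acts in the nucleus and in sperm development, had -0.047. Both genes that share only the letters of the symbol had negative values (PSMC3IP -0.295, with 0.03 in batch 2 and -0.71 in batch 1, and PSME3IP1 -0.113).

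The batches gave different values at 1 day. In batch 2 alone 31 members had negative values (median -0.112), and in batch 1 alone 21 did (median -0.012). At 1 day batch 1 held 3 psilocybin and 2 saline animals, and batch 2 held 3 of each. Whether the values differed between the batches beyond the spread of so few animals was not tested. Batch 2 holds animal cor_sal_1d_420. For the alpha ring the medians were -0.295 in batch 2 and -0.034 in batch 1.

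At 1 week after the dose, again 0 of 37 members passed with edgeR, as did 0.0% of all genes, and 0 of 37 had an unadjusted p under 0.05, where 1.99% of all genes did. DESeq2 and limma-voom gave 0 of 37 by adjusted p and 0 at the unadjusted level, against 2.11% of all genes with DESeq2 and 1.71% with limma-voom. The 37 values were closer to 0 than at 1 day: 26 were negative and 11 positive, with a median of -0.022, against -0.003 over all genes. They turned with the choice of libraries. Without animal cor_sal_1w_245, 12 were negative and 25 positive (median 0.023), and without animal cor_psi_1w_427, 34 were negative and 3 positive (median -0.084). Without all 3 libraries that stood apart, 28 were negative (median -0.046). In batch 2 alone, which holds animal cor_psi_1w_427, 28 were positive (median 0.074), and in batch 1 alone, which holds animal cor_sal_1w_245, 33 were negative (median -0.157). With 1 surrogate variable 28 were positive (median 0.022).

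The 3 members with the smallest p at 1 week were from 3 different roles. PSMC5, an ATPase (chromosome 12, 15100012 to 15106178, overlapping FTSJ3 on the other strand), ran from 160 through a median of 171 to 201 CPM after psilocybin and from 163 through 186 to 244 CPM after saline. The top of the saline range was animal cor_sal_1w_245. Its log2 fold change was -0.114 (-0.31 to 0.08, edgeR adjusted p = 1.0), with 0.02 in batch 2 and -0.26 in batch 1. PSME3, the nuclear activator (chromosome 12, 20024788 to 20035870, overlapping AOC2 on the same strand), had 64.0, 77.5 and 83.0 CPM as lowest, median and highest after psilocybin, and 71.8, 77.3 and 87.3 CPM after saline. Its log2 fold change of -0.072 (-0.20 to 0.06) was close in batch 2 (-0.06) and batch 1 (-0.08). The chaperone PSMD9 (chromosome 14, 30792666 to 30822005) had 25.3, 27.9 and 34.0 CPM after psilocybin and 27.1, 30.4 and 35.2 CPM after saline, a log2 fold change of -0.094 (-0.28 to 0.09). In each of these genes the ranges of the groups overlapped.

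Among the catalytic genes at 1 week, PSMB7 had from 70.2 through 81.6 to 101 CPM after psilocybin and from 72.3 through 81.9 to 113 CPM after saline (log2 fold change -0.041, -0.25 to 0.17). The PSMB5 row had from 74.0 through 94.3 to 107 CPM and the PSMB6 row from 63.6 through 71.2 to 91.4 CPM after psilocybin, and after saline they had from 81.7 through 92.7 to 123 CPM and from 60.04 through 72.3 to 107 CPM. Their log2 fold changes were -0.057 (-0.26 to 0.15) and -0.049 (-0.32 to 0.22). PSMB7, PSMB5 and PSMB6 were all positive in batch 2 alone (0.092, 0.008 and 0.22) and all negative in batch 1 alone (-0.17, -0.12 and -0.32). In the alpha ring 3 of 6 members were negative (median 0.005), with values of all 6 between -0.012 and 0.071. Over all 37 members the intervals at 1 week reached from -0.61 to 0.46.

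The design also allows a test of whether the effect of psilocybin differed between the times. For this change (the 1 week effect minus the 1 day effect) 0 of 37 members passed with edgeR, as did 0.0% of all genes. At an unadjusted p under 0.05 there were again 0 members, against 2.02% of all genes. The median of the members was 0.054, with 26 positive, and that of all genes 0.001. The 3 smallest p belonged to alpha subunits: PSMA5 (0.25, -0.13 to 0.63), PSMA2 (0.38, -0.23 to 0.99) and PSMA1 (0.26, -0.17 to 0.69), each with an edgeR adjusted p of 1.00. PSMA5 (chromosome 4, 110662692 to 110721525, overlapping SORT1 on the same strand) had 26.7, 33.9 and 37.7 CPM as lowest, median and highest 1 day after psilocybin, with 29.7, 34.8, 34.5, 36.8 and 55.6 CPM in the saline 1 day animals. At 1 week it had 31.0, 35.03 and 56.3 CPM after psilocybin and 31.3, 35.6 and 40.3 CPM after saline. Animal cor_sal_1d_420 was the high saline animal at 1 day and animal cor_psi_1w_427 the high psilocybin animal at 1 week. PSMA2 (chromosome 18, 51909347 to 51923153) had from 44.8 through 51.7 to 69.1 CPM after psilocybin at 1 week and from 36.9 through 48.0 to 74.1 CPM after saline. PSMA1 had from 32.2 through 35.8 to 59.9 CPM after psilocybin at 1 week and from 32.6 through 38.4 to 49.9 CPM after saline. The top animals were again cor_psi_1w_427 and cor_sal_1w_245, and below them the groups overlapped. Without animal cor_sal_1d_420 the change was 0.12 for PSMA5, 0.030 for PSMA2 and 0.10 for PSMA1. Over all members the median change was -0.007 without that animal, -0.009 without animal cor_psi_1w_427 and -0.027 without all 3 libraries that stood apart. It was 0.20 in batch 2 alone and -0.123 in batch 1 alone, where PSMA5, PSMA2 and PSMA1 had -0.002, -0.31 and -0.12.

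Averaged over both times, 0 of 37 members passed with edgeR, beside 0.0% of all genes, and 0 had an unadjusted p under 0.05, beside 3.04% of all genes. Here 33 members had negative values (median -0.052, against -0.001 over all genes), and the intervals reached from -0.55 to 0.18. The chaperone PSMD9 had the smallest p (-0.106, -0.24 to 0.03). Without animal cor_sal_1d_420 the median was -0.007. The average shares its samples with the comparisons at each time and adds no independent animals.

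Between the times, 1 week against 1 day, members also passed in neither treatment. After psilocybin edgeR called 0 of 37 (0.0% of all genes), with 0 at an unadjusted p under 0.05 (3.18% of all genes), and the median was 0.015, against 0.012 over all genes. After saline it called 0 of 37 (0.0% of all genes), with 0 at an unadjusted p under 0.05 (2.01% of all genes), and the median was -0.041, against 0.004. The saline median over all 37 members was 0.048 without animal cor_sal_1d_420 and -0.101 without animal cor_sal_1w_245, and the psilocybin median was -0.060 without animal cor_psi_1w_427.

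Summed over all members, expression overlapped between the 4 groups. The sum averaged 2686 ± 205 CPM in psilocybin 1 day animals (SD, n = 6) and 2791 ± 306 in saline 1 day animals (n = 5). It averaged 2697 ± 274 CPM in psilocybin 1 week animals and 2759 ± 306 in saline 1 week animals (n = 6 each). The differences between treatments were smaller than 1 SD at both times. The lowest sum was that of cor_psi_1w_423 (2411 CPM) and the highest that of cor_sal_1w_245 (3289 CPM).

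A member score, the mean over the 37 members of log2 CPM relative to each gene's mean over all libraries, placed each animal. Psilocybin 1 day animals had scores from -0.124 (animal cor_psi_1d_417) through a median of -0.042 to 0.105 (animal cor_psi_1d_255), and the saline 1 day animals had 0.065, 0.067, -0.131, -0.101 and 0.29 in the order above. Psilocybin 1 week animals ran from -0.156 through -0.045 to 0.21 (animal cor_psi_1w_427), and saline 1 week animals from -0.142 through -0.009 to 0.28 (animal cor_sal_1w_245). The groups overlapped at both times, and the highest animal of 3 of the 4 groups was 1 of the libraries that stood apart. For the alpha ring alone those 3 animals had 0.50 (animal cor_psi_1w_427), 0.68 (animal cor_sal_1d_420) and 0.41 (animal cor_sal_1w_245), while no other animal was above 0.040. For the non-ATPase subunits the same 3 animals had 0.140, 0.081 and 0.158, and animal cor_sal_1d_260 (0.092) and animal cor_psi_1d_255 (0.104) lay in that range.

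**Figure D3:**
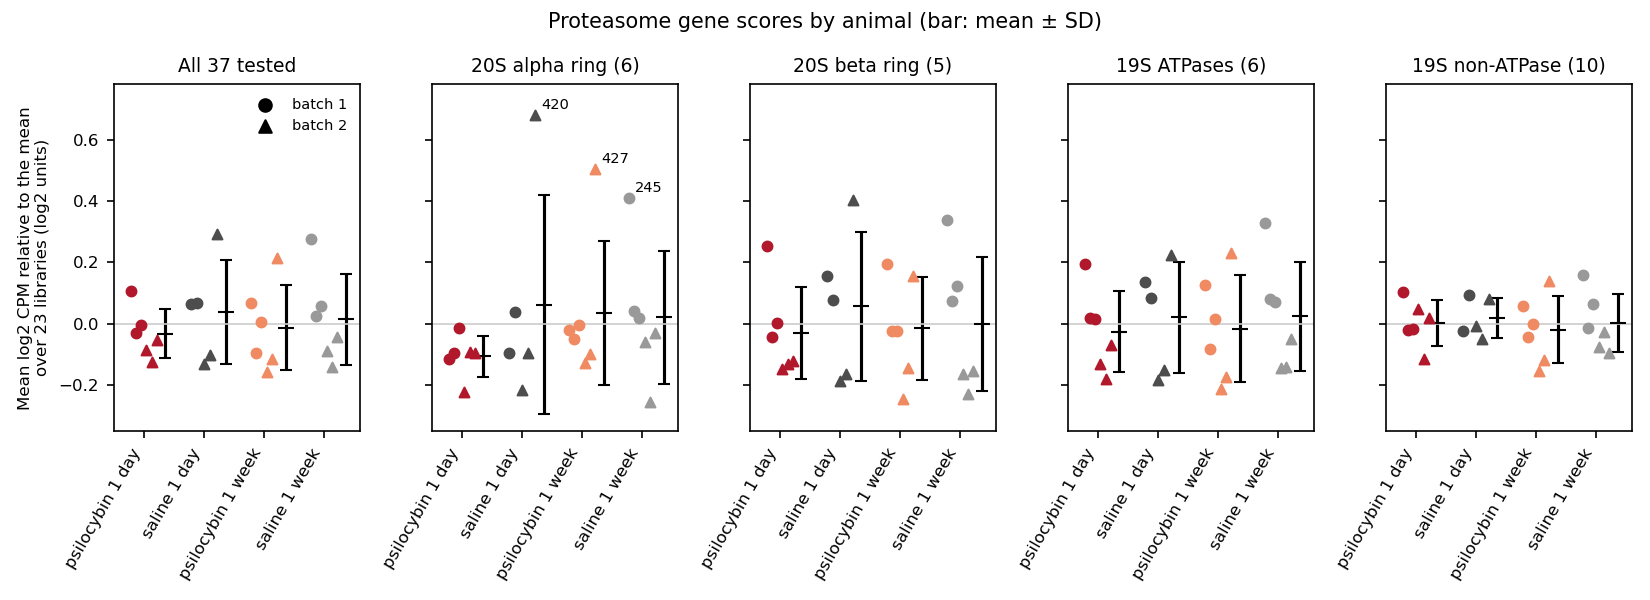
Mean log2 CPM of the members relative to their mean over 23 libraries, per animal, for all 37 members and for the main roles; circles are batch 1, triangles batch 2, and bars show the mean ± SD of each group. In the alpha ring animals cor_psi_1w_427 (0.50), cor_sal_1d_420 (0.68) and cor_sal_1w_245 (0.41) lie far above the rest, while in the non-ATPase panel all animals lie between -0.153 and 0.158.

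Gene by gene, 5 of the 6 alpha members were higher in each of these 3 animals than in any of the other 20. The exception was PSMA7, which did so in 1 of the 3. The same was true of 2 of 5 beta members (PSMB1 and PSMB2), 2 of 6 ATPases (PSMC1 and PSMC6), 3 of 10 non-ATPase subunits (PSMD6, PSMD8 and PSMD14) and 2 of 3 chaperones of the 19S particle (PSMD5 and PSMD10). In all, 14 of 37 members (37.8%) showed it, beside 4.44% of all genes tested. These animals were singled out by their first principal component over all genes, the members included, so the counts are a description. In PSMA2 the largest of these deviations was reached, 1.06 log2 units above the gene's mean in animal cor_sal_1d_420, with the highest of the other 20 animals at 0.17.

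How far a member varied between animals, after group means and 1 batch term common to all groups were removed, differed between roles. The residual SD on the log2 scale had a median of 0.256 in the alpha ring, 0.209 in the beta ring, 0.154 among the ATPases and 0.115 among the non-ATPase subunits. These SDs include the 3 libraries that stood apart and were not computed without them. In the alpha ring those libraries had scores of 0.50 (cor_psi_1w_427), 0.68 (cor_sal_1d_420) and 0.41 (cor_sal_1w_245). How far the order of the roles rests on them was not tested. Over all 37 members the median was 0.176, and over all genes tested 0.225. PSME3 (0.083), PSMD12 (0.085), a subunit of the lid, and PSMB3 (0.088), a structural beta subunit, varied least. PSMA2 (0.37) and PSMC3IP (0.34) varied most, the second of them at a low level.

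Members were also compared by how they moved together across the 23 animals. After the batch means were removed, each member's log2 CPM was correlated with the mean of the other members. The points share their library and its scaling, so these values describe the data and carry no p. The median Pearson's r was 0.75, and 30 of 37 members (81.1%) had r above 0.5, while 17.4% of all other genes tested reached that with the member score. The member score itself had r = 0.87 (rho = 0.69) with the first principal component of all tested genes, the members included. Without the 3 libraries that stood apart this r was 0.61. Co-variation particular to the proteasome was not separated from that component. The closest followers were PSMB1, a structural beta subunit (r = 0.95, Spearman's rho = 0.86), PSMA3 (0.94 and 0.89) and PSMA7 (0.93 and 0.86). Without the 2 animals farthest from the median of the score their r was 0.86, 0.90 and 0.85. The activators PSME4 (r = -0.55, rho = -0.40) and PSME3 (-0.25 and -0.30) and the lid subunit PSMD11 (-0.03 and -0.04) followed least.

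**Figure D4:**
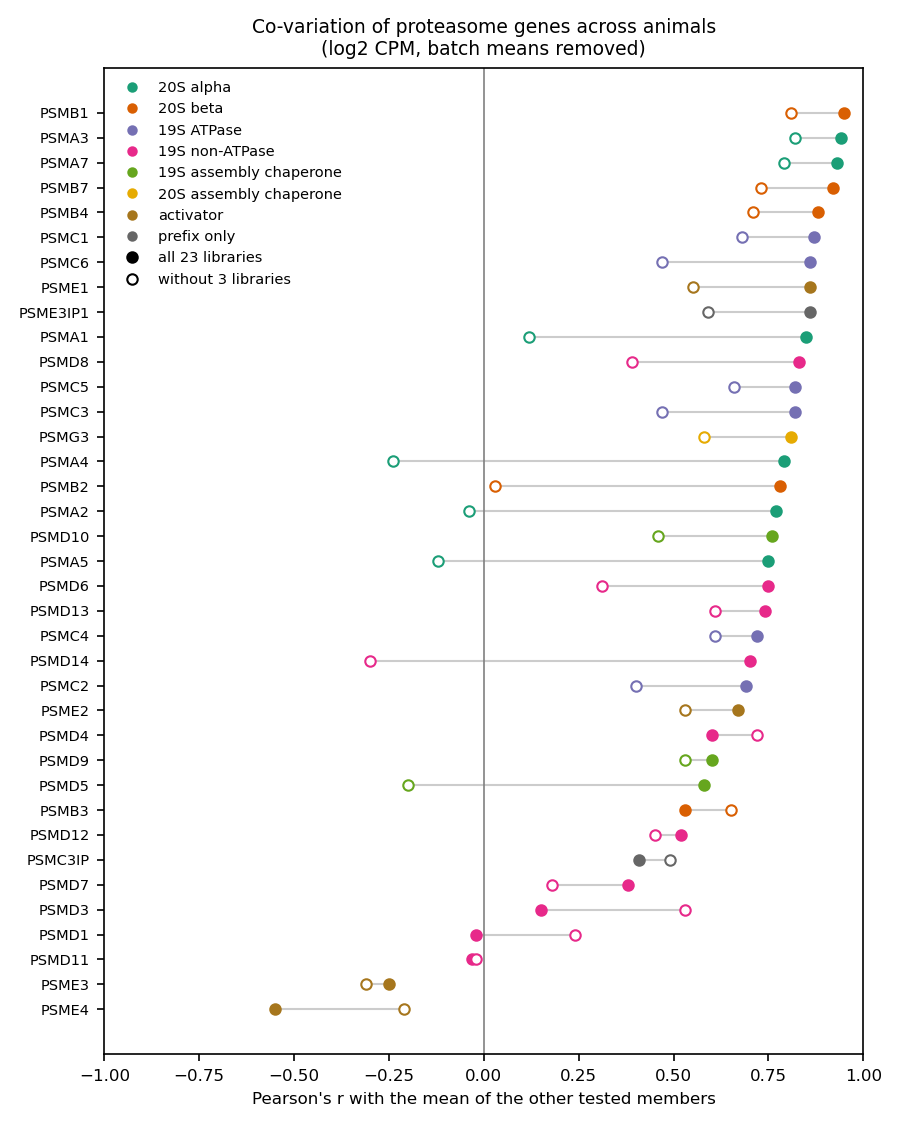
Pearson's r of each tested member with the mean of the other members across animals, after removal of batch means, in all 23 libraries (filled) and without the 3 libraries that stood apart (open). PSMB1, PSMA3 and PSMA7 stay at 0.79 or above in both, while PSMA1, PSMA2, PSMA4 and PSMA5 drop to between -0.24 and 0.12.

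Without the 3 libraries that stood apart the median r was 0.47, with 17 members above 0.5 and 8 below 0. The share of all other genes above 0.5 in that set of libraries is not reported here. The alpha ring dropped most, to a median of 0.04 in place of 0.82. The beta ring had 0.71 in place of 0.88, the ATPases 0.54 in place of 0.82 and the non-ATPase subunits 0.35 in place of 0.56. Within the alpha ring the members parted: PSMA3 and PSMA7 still had 0.82 and 0.79, while PSMA1 had 0.12, PSMA2 -0.04, PSMA5 -0.12 and PSMA4 -0.24. Between role scores, the beta ring and the ATPases went together in all libraries (r = 0.93, rho = 0.82) and without the 3 (r = 0.82). The alpha and beta rings had r = 0.85 and rho = 0.53 in all libraries and r = 0.19 without the 3.

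The activators did not follow as 1 group. PSME1 and PSME2, the subunits of the interferon-inducible activator, had r of 0.86 and 0.67 with the other members. PSME1 ran from 21.6 through 24.2 to 29.6 CPM in psilocybin 1 day animals and had 26.2, 25.7, 19.8, 23.1 and 36.5 CPM in the saline 1 day animals, so that animal cor_sal_1d_420 was again the high one. PSME4 had 25.9 CPM in animal cor_sal_1d_420, the lowest of its group, and 22.9 CPM in animal cor_sal_1w_245, the lowest of all 23.

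The member score was set beside scores of other gene groups. Across animals it went with nuclear genes of the respiratory chain (70 genes; r = 0.95, rho = 0.80, and r = 0.87 without the 2 farthest animals), with r = 0.95 within batch 2 and r = 0.96 within batch 1. With ribosomal protein genes (56 genes) r was 0.90 and rho 0.69. Without the 3 libraries these became 0.73 for the respiratory chain and 0.55 for the ribosomal proteins. Animals cor_psi_1w_427, cor_sal_1d_420 and cor_sal_1w_245 had respiratory chain scores of 0.27, 0.53 and 0.45 and ribosomal scores of 0.29, 0.70 and 0.51, the 3 highest of all animals in both. Of the cell type marker lists, 7 of 7 neuron markers were expressed in every library. The neuron score had r = -0.47 (rho = -0.35) with the member score, and r = -0.34 without the 3 libraries. For the oligodendrocyte score r was 0.36 (rho = 0.17), and 0.02 without the 3. For the microglia score r was 0.16 (rho = 0.20), and 0.22 without the 3. The endothelial score, from 2 of 3 markers (PECAM1 and FLT1, since CLDN5 has no row with its symbol), was -0.71, -0.82 and -0.58 in animals cor_psi_1w_427, cor_sal_1d_420 and cor_sal_1w_245, the 3 lowest values. By group it ran from -0.27 to 0.32 in psilocybin 1 day animals, from -0.82 to 0.38 in saline 1 day animals, from -0.71 to 0.23 in psilocybin 1 week animals and from -0.58 to 0.65 in saline 1 week animals, and neither marker was at 0 in any library. Its r with the member score was -0.77 (rho = -0.26) in all libraries and 0.05 without the 3. The astrocyte score, from 5 of 5 markers, had r = -0.10 (rho = -0.33) with the member score in all libraries and r = -0.58 without the 3. It ran from -0.54 to 0.465 in psilocybin 1 day animals, from -0.82 to 0.103 in saline 1 day animals, from -0.42 to 0.465 in psilocybin 1 week animals and from -0.30 to 0.28 in saline 1 week animals. The mitochondrially encoded share of counts, between 7.08% and 15.6% over all animals, had r = 0.45 (rho = 0.38) with the member score, r = 0.25 without the 2 farthest animals and r = 0.19 without the 3 libraries. With library depth the score had r = 0.18 and rho = 0.34. The part of cell composition, RNA quality or dissection in these patterns was not tested.

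**Figure D5:**
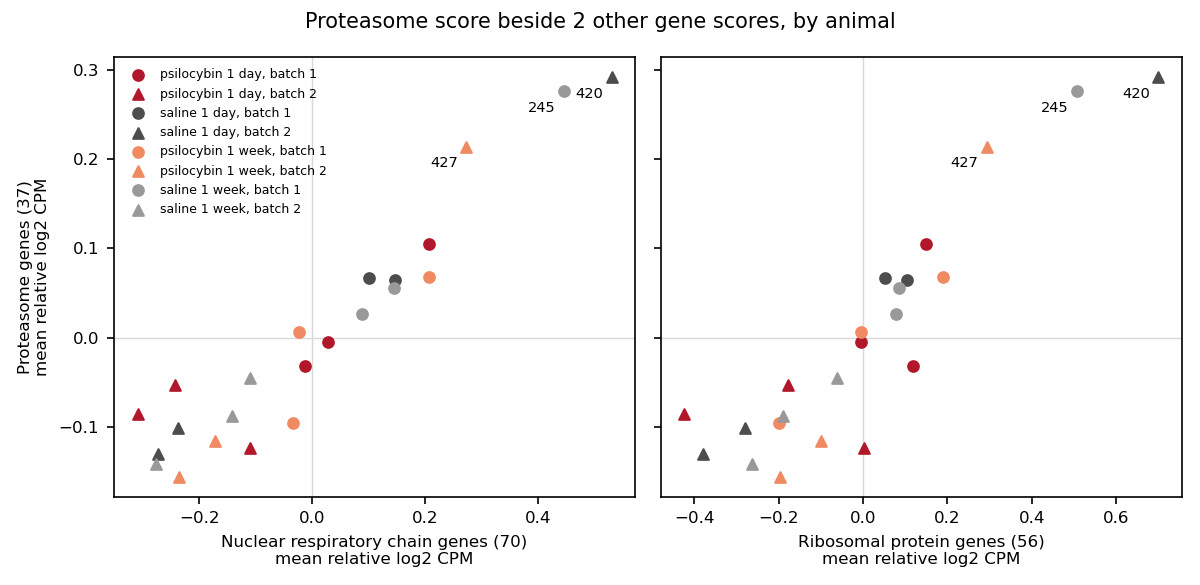
Member score of each animal against its score of nuclear respiratory chain genes (left) and of ribosomal protein genes (right), both as mean log2 CPM relative to the mean over 23 libraries. Colour gives the group, circles are batch 1 and triangles batch 2; animals cor_psi_1w_427, cor_sal_1d_420 and cor_sal_1w_245 sit at the top right, and most batch 2 animals at the bottom left.

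Outside the list, genes with a symbol were ranked by how like the member score their levels were over the 23 libraries, after removal of batch means. The highest was UBL5, a ubiquitin-like protein (r = 0.957, and 0.846 without the 3 libraries). Next came the adaptor CRK (0.949 and 0.73), the ATP synthase subunit ATP5MC3 (0.949 and 0.66), MIEN1 (0.946 and 0.754) and SUCLG1, an enzyme of the citric acid cycle (0.945 and 0.80). Of all genes tested 12495 have a symbol, and rows without one were not ranked.

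Batch was the one labelled variable along which members passed the test. Between batch 2 and batch 1, edgeR called 11 of 37 members at an adjusted p under 0.05, while 32.9% of all genes tested were called, so the members' share (11 of 37) was near that of all genes. Of these, 2 were higher in batch 2 (16.1% of all genes were) and 9 lower (16.8% of all genes were), and the members' median was -0.128, against -0.024 over all genes. The number called was 21 without the 3 libraries, which left 38.4% of all genes called, and 5 without animal cor_psi_1d_255 or without animal cor_psi_1w_246, both of batch 1. The share of all genes called in the runs that gave 5 is not reported here, so that drop cannot be read as particular to the members. With 1 surrogate variable in the model 0 members and 0.857% of all genes were called, and the members' median was 0.081. How far that variable itself follows batch was not tested, so this run does not show that the batch difference depends on processing.

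The member with the smallest p was PSME3, which was higher in batch 2. It ran from 77.9 through a median of 82.3 to 93.5 CPM in the 12 animals of batch 2 and from 64.0 through 71.8 to 79.5 CPM in the 11 of batch 1. Its log2 difference was 0.21 ± 0.044 (SE, edgeR adjusted p = 0.00128). PSMD5, a chaperone that holds the 19S base during assembly, was also higher in batch 2 (0.199, adjusted p = 0.0418 with edgeR).

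Among the 9 that were lower in batch 2 were 3 of 6 ATPases, 3 of 10 non-ATPase subunits, 2 of 5 beta subunits and 1 of 6 alpha subunits. PSMD3 had 128, 139 and 158 CPM as lowest, median and highest in batch 2 and 144, 158 and 188 CPM in batch 1 (log2 difference -0.22 ± 0.050, adjusted p = 0.00248 with edgeR). PSMC4 had 47.0, 54.6 and 67.3 CPM in batch 2 and 59.3, 64.2 and 76.2 CPM in batch 1 (-0.27 ± 0.062, adjusted p = 0.00264 with edgeR). For both genes the ranges of the batches overlapped while the medians stood apart. The others were PSMA7 (-0.26), PSMB7 (-0.246), PSMB4 (-0.28), PSMD4 (-0.16), PSMC3 (-0.246), PSMC5 (-0.191) and PSMD13 (-0.137), with edgeR adjusted p from 0.0111 to 0.0457. All 6 ATPases and all 5 beta subunits had negative values, with medians of -0.171 and -0.204. In the alpha ring 3 of 6 did, and PSMA5 had a positive value just outside the threshold (0.23, adjusted p = 0.0558 with edgeR). In the same comparison, where 32.9% of all genes tested were called, edgeR called 5 of 5 microglia markers, all lower in batch 2 (median -0.494). It called 4 of 7 neuron markers (of the 7, 4 were higher and 3 lower, median 0.080). Of the astrocyte markers it called 3 of 5 (of the 5, 3 were higher and 2 lower, median 0.27). It also called 1 of 2 markers of oligodendrocyte precursors, 0 of 4 oligodendrocyte markers and 0 of 2 endothelial markers. The microglia score ran from -0.94 to 0.31 in batch 2 and from -0.18 to 0.57 in batch 1. Their part in the members' differences was not tested.

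The immunoproteasome genes, which replace the catalytic subunits in immune cells and under interferon, lie outside the list. At 1 day PSMB8 averaged 10.2 ± 1.97 CPM in psilocybin animals (SD, n = 6) and 11.6 ± 1.92 CPM in saline animals (n = 5). At 1 week it averaged 13.6 ± 3.76 CPM in psilocybin animals and 11.1 ± 1.43 CPM in saline animals (n = 6 each), and the groups' SDs overlapped at both times. Its log2 fold changes of -0.191 and 0.295 gave a change of 0.49 (0.006 to 0.97, edgeR adjusted p = 1.00). PSMB9 had -0.172 at 1 day and 0.21 at 1 week, and PSMB10 had -0.22 and -0.072. With edgeR 0 of the 3 passed at 1 day, at 1 week or in the change, and only PSMB8 in the change had an unadjusted p under 0.05, which 2.83%, 1.99% and 2.02% of all genes had in these 3 comparisons.

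Of 32 listed genes that supply, assemble, regulate or work beside the proteasome, 29 had a row with their symbol, and with edgeR 0 of 29 passed at either time or in the change. At 1 day 18 had negative and 11 positive values (median -0.058). USP14, a deubiquitinase bound to the 19S particle, averaged 50.9 ± 4.45 CPM in psilocybin 1 day animals and 56.8 ± 2.24 CPM in saline 1 day animals (log2 fold change -0.151, -0.28 to -0.024, adjusted p = 1.00). BAG6, a chaperone that hands faulty proteins to the proteasome, averaged 156 ± 6.08 CPM in psilocybin 1 day animals and 140 ± 9.44 CPM in saline 1 day animals (0.154, 0.022 to 0.29, adjusted p = 1.00), and the ubiquitin-activating enzyme UBA1 had 0.145. USP14 and BAG6 were the 2 of these 29 genes with an unadjusted p under 0.05 in edgeR at 1 day, where 2.83% of all genes had one. At 1 week and in the change 0 of the 29 did, beside 1.99% and 2.02% of all genes. At 1 week PAAF1, a regulator of 19S binding, had -0.24 (-0.55 to 0.078) and ZFAND2A had -0.27, and 22 of 29 values were negative (median -0.030). In the change UBQLN4 had -0.171 and UBA1 had -0.176.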

How the data were processed

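Whole prefrontal cortex RNA of 23 pigs was sequenced after poly-A selection. The deposited table holds estimated counts per gene: the submitters' processing notes name fastp 0.20.0, STAR 2.6c, featureCounts 1.5.1 and the build susScr11, and per the file headers strand was ignored and reads over several genes were shared in fractions. Of all values 72.2% were whole (tolerance 0), and rounding changed library totals by at most 0.0013%. Of the 39 members 21 overlap another annotated gene, 7 on its own strand and 18 on the opposite one, so reads of both can be mixed.

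Genes were kept by filterByExpr (minimum count 10, total 15) and tested on rounded counts in edgeR 4.0.16 (R 4.3.3), with TMM scaling and a quasi-likelihood F test, two-sided, in 1 model with 4 groups and batch, and Benjamini-Hochberg adjustment over 15049 genes. Log2 CPM used a prior count of 2. DESeq2 1.42.0, limma-voom (limma 3.58.1), sva 3.50.0, other scalings, filters, sample sets and each animal left out were alternatives. Labels name separate animals. The members, lists and tests were chosen with earlier results of these data known. Named members were the catalytic genes, the 3 with the smallest p per psilocybin comparison, up to 10 called per comparison, the highest and lowest per role, and the 3 most and least correlated. PSMG1 was not analysed here, and 1 gene named by the rule for the pathway list is not reported here. RefSeq positions (Sscrofa11.1) located 6 rows without a symbol.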

Additional observations from a re-analysis of the deposited data

Results flagged for a closer look

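In 6 of the 76 sets of animals examined, each a score or the log2 CPM of a named member in 1 group, the highest animal lay farther from its nearest neighbour than Dixon's limit for that group size allows. Chance gives this in about 1 in 20 independent sets. The sets here share animals and genes, so that rate is no measure for them. The alpha ring score was 0.50 in animal cor_psi_1w_427, with the next animal at -0.01, and 0.68 in animal cor_sal_1d_420, with the next at 0.04. PSMA1 had a log2 CPM of 5.91 in animal cor_psi_1w_427 (next 5.25) and 5.93 in animal cor_sal_1d_420 (next 5.29). PSMA5 had 5.82 in animal cor_psi_1w_427 (next 5.17). PSMB7 had 6.67 in animal cor_psi_1d_255 (next 6.36), an animal whose alpha ring score (-0.116) was below 0. The cause of these values was not tested.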

How the results depend on the processing

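In all 6 comparisons of treatment and time 0 members passed under every alternative run, DESeq2 and limma-voom included. Medians moved more. With batch 1 alone the median was -0.157 at 1 week and -0.123 in the change between the times, and with batch 2 alone it was 0.20 in the change. Leaving out 1 animal at a time gave medians from -0.111 to -0.002 at 1 day, from -0.084 to 0.023 at 1 week and from -0.009 to 0.088 in the change. Adding the 6 rows found by position, or leaving out PSMC3IP and PSME3IP1, both chosen after seeing the data, gave medians of -0.085 and -0.072 at 1 day and of -0.022 and -0.021 at 1 week. Between batches 4 of the 6 added rows were themselves called, beside 32.9% of all genes tested.

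With 1 surrogate variable PSMB5 and PSMB6 turned to 0.006 and 0.014 at 1 day, and PSMB7, PSMB5 and PSMB6 to 0.047, 0.034 and 0.068 at 1 week. Without the 3 libraries that stood apart PSMB5 and PSMB6 had 0.031 and 0.057 at 1 day. In batch 2 alone PSMC5 had 0.025, PSMD9 0.012, PSMB7 0.092, PSMB5 0.008 and PSMB6 0.22 at 1 week. In batch 1 alone the change was -0.002 for PSMA5, -0.31 for PSMA2 and -0.124 for PSMA1. Leaving out 1 animal gave -0.125 to 0.030 for PSMB5 and -0.197 to 0.057 for PSMB6 at 1 day, and -0.112 to 0.031 for PSMB7, -0.116 to 0.005 for PSMB5 and -0.158 to 0.046 for PSMB6 at 1 week.

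Between batches the number of members called was 0 with 1 surrogate variable (median 0.081), beside 0.857% of all genes. It was 21 without the 3 libraries, beside 38.4% of all genes, and 5 to 15 on leaving out 1 animal. The 15 came without animal cor_sal_1d_420, where 37.4% of all genes were called. In CPM without division by length the highest member was PSMA7 (210.1 CPM) in place of PSMB7 (85.1 CPM). With batch means kept, the r of PSMA5 (0.42), PSMD5 (0.24) and PSMD12 (0.48) fell below 0.5, and those of PSMB1 and PSMA3 stayed at 0.95 and 0.94. The causes were not tested. No paired analysis was possible because the groups share 0 animal numbers.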

Other observations

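The 6 proteasome rows found by position, which lie outside the list, were also compared between batches, where 32.9% of all genes tested were called. With edgeR PSMB5 (-0.26, adjusted p = 0.00804), PSMB6 (-0.26, adjusted p = 0.0367) and PSMG4, a chaperone of the alpha ring (-0.32, adjusted p = 0.0252), were lower in batch 2. PSMD2, a scaffold subunit of the 19S base, was higher in batch 2 (0.195, adjusted p = 0.0467). PSMA6 (-0.13) and PSMG2 (-0.20) did not pass. Of the 29 genes working beside the proteasome, 9 were called between batches, those with the smallest p being the shuttle factor UBQLN1 (0.25), the ubiquitin-activating enzyme UBA6 (0.35) and the ubiquitin ligase UBE3C (0.37), each higher in batch 2.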
